A study of Mus musculus with 5 samples.

Results

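The loci of Cd4, Zbtb7b and Runx3 were examined for open chromatin and for HEB and TCF1 binding in DP thymocytes. Members were all called regions that overlapped 1 of 3 mm9 windows by at least 1 bp. The Cd4 window was chromosome 6 from 124780001 to 124880000 (100 kb), the Zbtb7b window chromosome 3 from 89150001 to 89230000 (80 kb) and the Runx3 window chromosome 4 from 134600001 to 134800000 (200 kb). They held 75 of the 56796 regions listed: 66 of the 48320 in the DNaseI list, 4 of the 4930 for HEB and 5 of the 3546 for TCF1. The Cd4 window held 31 members, the Zbtb7b window 14 and the Runx3 window 30.

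DP thymocytes are immature T cells of the thymus that carry CD4 and CD8 together. They came from mice of the strain labelled C57/BL6 at 4 to 6 weeks of age, with no allele or treatment named. The 3 assays used here, DNase I digestion of intact nuclei and chromatin immunoprecipitation with antibodies to HEB or to TCF1, had 1 sample each. No value therefore has a replicate error or a test, sequencing depth is unknown, and intervals below cover counting error only. The samples for H3K9me3 and H3K27ac were not analysed here.

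Cd4 encodes the coreceptor that binds MHC class II and is expressed in DP thymocytes. After positive selection these cells become CD4 helper or CD8 cytotoxic T cells. Zbtb7b encodes ThPOK, a zinc finger factor needed for the helper lineage, and Runx3 encodes a Runt domain factor that silences Cd4 in the cytotoxic lineage. ThPOK and RUNX3 are known to oppose each other. HEB is the E protein product of Tcf12 and binds E-boxes, and E proteins are known to act on a Cd4 enhancer. TCF1 is the HMG-box product of Tcf7 and is known to act, with LEF1, in the choice between both lineages.

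In the gene order of the RefSeq table, the nearest protein-coding neighbours were Gpr162 and Lag3 for Cd4, Dcst2 and Lenep for Zbtb7b, and Syf2 and Clic4 for Runx3. That table is of GRCm38.p6, another build than the lists, so no called region was assigned to a promoter, exon, intron or UTR. The sequences shown here are the RefSeq matches to the letters that E proteins, TCF/LEF factors and RUNX factors are known for. The RefSeq transcript starts used were 1 of Zbtb7b and 2 of Runx3, and Cd4 had no entry. The 250 bases before each start were searched on both strands for CAGCTG and CACCTG (E-boxes), CTTTGA (TCF/LEF) and TGTGGT (RUNX). No pair of these motifs overlapped in a match. Matches are in capitals with 12 bases on either side, 5′ to 3′ on the gene's strand, so CACCTG on the other strand reads CAGGTG and TGTGGT reads ACCACA.
Zbtb7b, RUNX, chr3:89387743-89387772, minus strand: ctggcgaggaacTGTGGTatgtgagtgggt
Runx3, start 1, E-box, chr4:135120400-135120429, plus strand: gacatcacagccCAGGTGacagtggcctag
Runx3, start 1, RUNX, chr4:135120499-135120528, plus strand: tctggtccctcaACCACAgaaccacaaggc
Runx3, start 1, RUNX, chr4:135120507-135120536, plus strand: ctcaaccacagaACCACAaggccaggccct

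The coordinates of these stretches are of GRCm38.p6. At Runx3 start 1 the RUNX letters occurred at 134 and 126 bases before the transcript start, and the last 2 stretches share bases. The E-box letters lay 233 bases before that start. The RUNX letters at the Zbtb7b start lay 89 bases before it. Runx3 start 2 held none of the 4 motifs, and CAGCTG and CTTTGA were found before none of the 3 starts. Among all 32851 RefSeq promoters of this length, 17.2% held CACCTG, 14.0% TGTGGT, 13.8% CTTTGA and 13.0% CAGCTG. A match is a string of letters and not a measured site.

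Open regions were dense at all 3 loci. The Cd4 window held 25 DNaseI regions, or 25 per 100 kb (95% exact Poisson interval 16.2 to 36.9). The Zbtb7b window held 12, or 15 per 100 kb (7.75 to 26.2), and the Runx3 window 29, or 14.5 per 100 kb (9.71 to 20.8). Over the span of all chromosomes, counted from base 1 to the last listed region, the density was 1.83 per 100 kb. On a fixed grid of windows of equal length, 0.352% of 26397 windows held as many DNaseI regions as the Cd4 window or more. This share was 2.46% of 32991 windows of 80 kb for Zbtb7b and 1.64% of 13203 windows of 200 kb for Runx3. The grid includes unsequenced and gene-poor stretches, which lowers the typical count. DNaseI regions covered 14.0% of the bases of the Cd4 window, 5.62% of the Zbtb7b window and 6.90% of the Runx3 window, against 0.823% of the whole span.

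**Figure D1:**
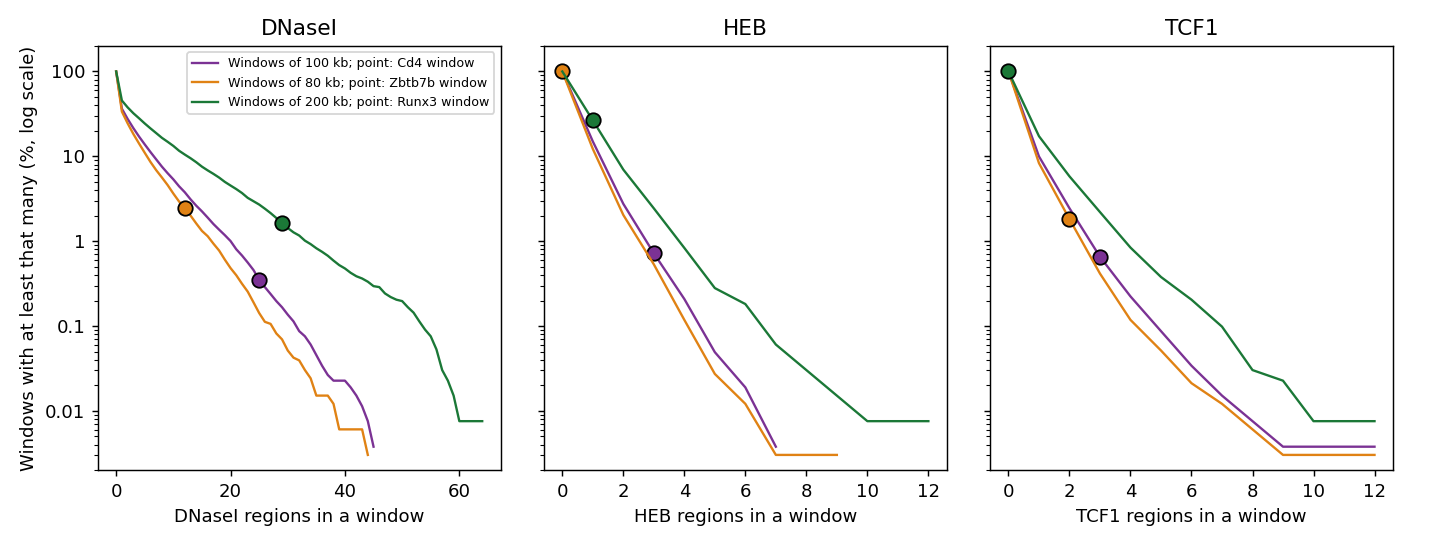
Share of fixed-grid windows (vertical axis, %, log scale) that held at least a given number of DNaseI, HEB or TCF1 regions (horizontal axis), with lines for windows of 100, 80 and 200 kb and points for the Cd4, Zbtb7b and Runx3 windows. The DNaseI points sit at 0.352%, 2.46% and 1.64%, while the points for HEB at Zbtb7b and TCF1 at Runx3 sit at 0 regions.

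Scores of the open regions were not generally high. The score, a whole number with no stated unit, is the authors' own and is used only within its list. Its median was 18 at Cd4, 14 at Zbtb7b and 17 at Runx3, against 16 over the whole DNaseI list. Of the 25 Cd4 regions 13 scored above that list median, as did 5 of 12 at Zbtb7b and 16 of 29 at Runx3, where 48.5% of all DNaseI regions did. A score over 50 was reached by 7 of 25 regions at Cd4, 2 of 12 at Zbtb7b and 3 of 29 at Runx3, against 12.7% of the whole list. Most regions at each locus thus scored no more than 50. The share over 50 exceeded that of the list at Cd4 and lay near it at Zbtb7b and Runx3, on small counts. Widths had medians of 411 bp, 279 bp and 391 bp, against 315 bp for the list. The width of exactly 201 bp, which 26.4% of the list had, occurred in 7 regions at Cd4, 3 at Zbtb7b and 5 at Runx3, none of which carried a factor, against 1.37% with a factor among all regions of that width.

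**Figure D2:**
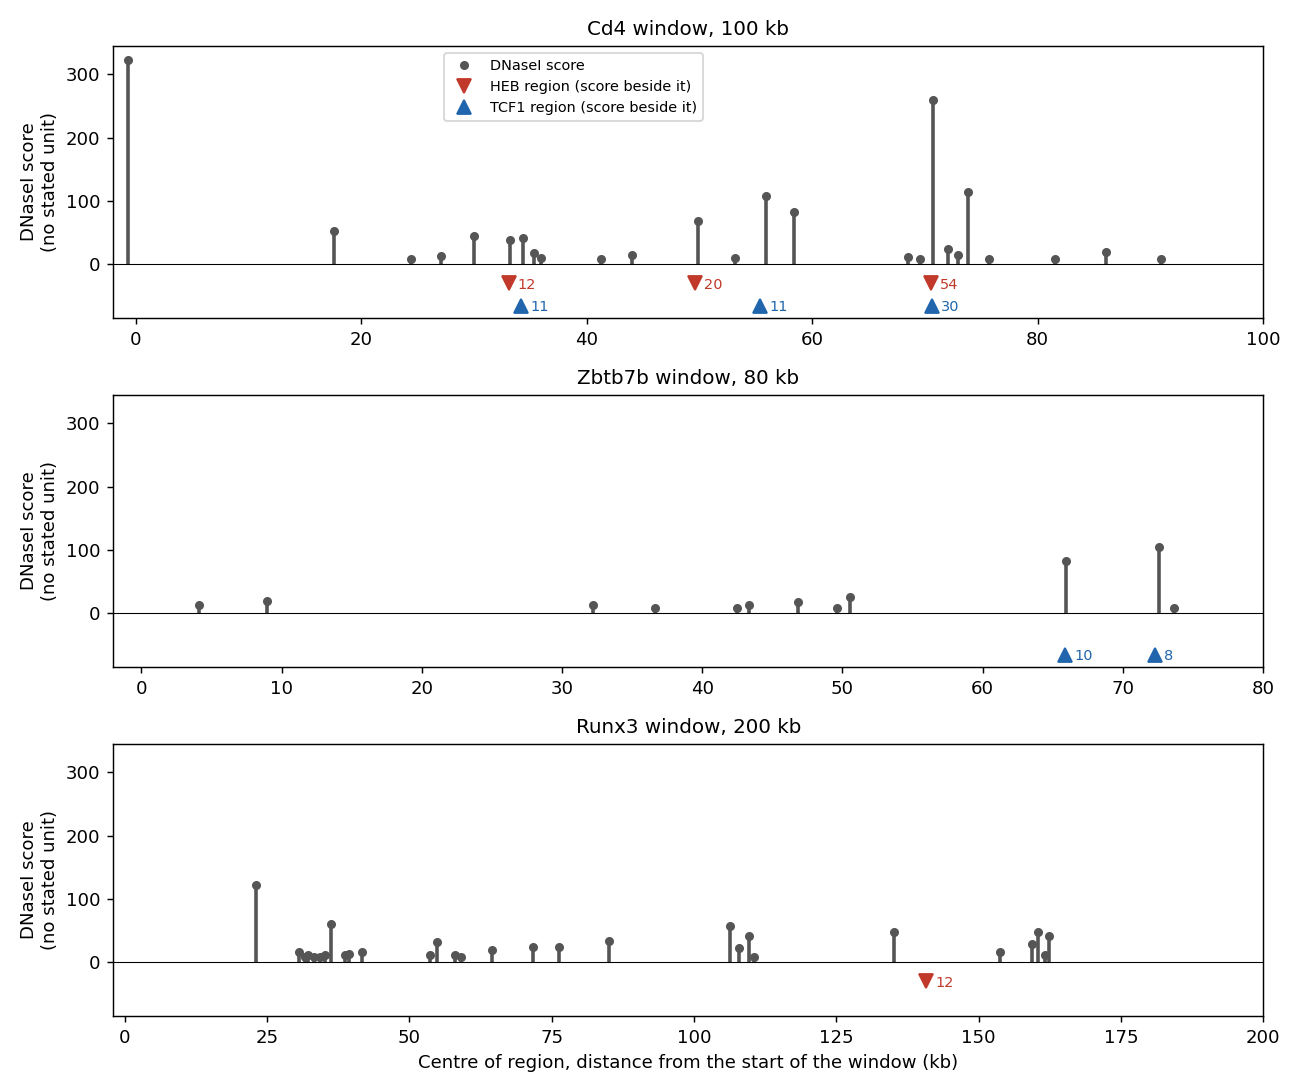
DNaseI score (vertical axis, no stated unit) of each open region against the distance of its centre from the start of the window (kb), with HEB regions as red and TCF1 regions as blue triangles beside their scores; the horizontal scale differs between panels. At Cd4 HEB and TCF1 lie together at the open region scoring 259, and at Zbtb7b TCF1 lies at both regions scoring over 50. At Runx3 the single HEB region lies outside every open region, where 34.5% of all HEB regions met an open region.

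Cd4 was the locus with both factors. Its 3 HEB regions scored 12, 20 and 54, and its 3 TCF1 regions scored 11, 11 and 30. A score of 11 is the TCF1 list median, and 55.1% of that list scored 11 or higher. All 6 HEB and TCF1 regions of the window lay in DNaseI regions, where 34.5% of all HEB regions and 84.9% of all TCF1 regions did. On the grid of 100 kb, 0.720% of windows held at least 3 HEB regions, 0.655% at least 3 TCF1 regions and 0.170% at least 3 of each. These shares are over all grid windows, of which 36.4% held at least 1 DNaseI region, so they do not allow for openness. Among the 93 grid windows with at least 25 DNaseI regions, 18.3% held no TCF1 region. Of the 25 open regions at Cd4, 1 carried both factors, 2 carried HEB alone, 2 carried TCF1 alone and 20 carried neither. Both factors together were on 1.28% of all DNaseI regions.

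The open region with both factors, on chromosome 6 from 124849868 to 124851493, was 1626 bp wide and scored 259. That score ranked 69 among 48320 DNaseI regions, and 1.45% of the regions in its width class (854 to 7846 bp) scored as high or higher. The open region was wider than the class median of 1097 bp. Its HEB region, from 124850420 to 124850620, scored 54 and ranked 20 among 4930. Its TCF1 region, from 124850518 to 124850700, scored 30 and ranked 67 among 3546, tied ranks being given the best place. The HEB and TCF1 regions shared 103 bp, with centres 89 bp apart. Of the 619 DNaseI regions of the genome that carried both factors, 34 had a DNaseI score of at least 259, 10 a HEB score of at least 54 and 26 a TCF1 score of at least 30. These 3 values are the region's own scores, so it reaches them by definition. No other of the 619 reached all 3. With cut-offs taken in this way, the same holds for any region that no other matches on all 3 scores at once. Of the 70 DNaseI regions scoring 259 or more, 48.6% carried both factors.

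Around it lay 6 further open regions within a stretch of 7.37 kb, from 124848369 to 124855736. None of them carried a factor. The strongest, from 124853418 to 124854310, scored 114 and ranked 1019, and the other 5 scored 8 to 25. The gaps from the region with both factors to its immediate neighbours were 209 bp and 279 bp.

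Next along the window towards lower coordinates were 4 open regions spanning 9.73 kb, from 124829257 to 124838983. They scored 68, 10, 108 and 83 in order of position. The first, from 124829257 to 124830447, carried the HEB region scoring 20 (124829532 to 124829732, rank 551). The third, from 124835078 to 124836718, carried a TCF1 region scoring 11 (124835304 to 124835486). Its DNaseI score of 108 ranked 1186, and the TCF1 centre lay 503 bp from the centre of the open region. The region scoring 83 carried neither factor. HEB and TCF1 thus lay in separate open regions here, with 5571 bp between them.

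Another group of 7 open regions spanned 11.79 kb, from 124804298 to 124816083, and scored 9 to 45. HEB with a score of 12 (124812983 to 124813183) lay in the region from 124812851 to 124813574, which scored 39. TCF1 with a score of 11 (124814120 to 124814302) lay in the next one, from 124814089 to 124814639, which scored 41. The open regions were 514 bp apart and the factor regions 936 bp apart. This TCF1 region began 31 bp inside the edge of its open region.

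Outside these groups, 7 open regions at Cd4 carried no factor. The highest score of the window, 322 (rank 32), belonged to the region from 124778093 to 124780540, which crosses the window's lower edge and has 540 of its 2448 bp inside. Of the 33 DNaseI regions scoring at least 322, 21.2% carried neither HEB nor TCF1. A region from 124797289 to 124797821 scored 52, and the other 5 scored 8 to 19. At the upper edge, the next DNaseI region (score 44) lay 687 bp beyond the window and the next HEB region (score 10) 4524 bp beyond it.

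The Zbtb7b window held TCF1 regions and no HEB region. Its 2 TCF1 regions lay in its 2 highest-scoring open regions, both in the upper 20 kb of the window. The open region from 89222052 to 89223068 scored 105 (rank 1279) and was 1017 bp wide, and its TCF1 region, from 89222231 to 89222413, scored 8. The open region from 89215599 to 89216267 scored 83 (rank 2254) and was 669 bp wide, and its TCF1 region, from 89215792 to 89215974, scored 10. Within its width class (628 to 853 bp) the second was high, since 5.03% of the regions scored as high or higher. For the first this was 25.1%, in a class that ran from 854 to 7846 bp. Both TCF1 scores lay below the TCF1 list median of 11, with 99.97% of the list scoring 8 or higher and 68.8% scoring 10 or higher. Windows of 80 kb with at least 2 TCF1 regions made up 1.82% of the grid. Among the 810 grid windows of 80 kb with at least 12 DNaseI regions, 36.2% held no TCF1 region.

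The other 10 open regions at Zbtb7b scored 8 to 26 and carried no factor. Of these, 5 lay in a stretch of 8.36 kb from 89192389 to 89200749, which included the region with the third highest score, from 89200282 to 89200749 (score 26). A gap of 14849 bp separated that region from the first TCF1-carrying one. The gap between both TCF1-carrying regions was 5784 bp. With no HEB region in 80 kb, the exact Poisson interval reached up to 4.61 per 100 kb, which includes the 0.187 per 100 kb of the whole list. On the grid, only 12.2% of windows of 80 kb held at least 1 HEB region. The nearest HEB region to a TCF1 region of this window was 104666 bp away, outside the window.

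Runx3, the widest window, had the most open regions and none with a factor. None of its 29 DNaseI regions met HEB or TCF1, and the 95% Wilson interval of 0 in 29 reaches up to 11.7%. Either factor was on 8.25% of all DNaseI regions. From the widths of the 29 regions a share of 9.58% was expected, or 2.78 regions. Both shares lie within that interval. The highest score, 123 (rank 832), belonged to the region from 134622565 to 134623581, which was 1017 bp wide. The next were the region from 134635760 to 134636861, with a score of 61, and that from 134705689 to 134706889, with a score of 57. Of DNaseI regions scoring at least 123, 42.3% carried neither factor, and at scores of at least 61 and 57 this was 62.4% and 63.8%. The other 26 scored 8 to 48.

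The Runx3 regions were closely spaced. Of 28 gaps between neighbours 14 were under 1000 bp, against 23.6% of all gaps in the list, with a median gap of 1095 bp against 5843 bp. At Cd4 8 of 24 gaps and at Zbtb7b 3 of 11 were that short, with medians of 2408.5 bp and 4125 bp. Only gaps between members of a window were counted for it, so they cannot exceed the window. The list includes every gap, so its median is not a like measure. The densest stretch at Runx3 held 10 open regions in 11.29 kb, from 134630497 to 134641787, with scores of 8 to 61 and a median of 12. Further groups of 4 lay from 134653572 to 134659141 (scores 9 to 33), from 134705689 to 134710709 (8 to 57) and from 134759128 to 134762758 (11 to 48). The widest gap inside the window was 24046 bp.

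The single HEB region at Runx3, from 134740667 to 134740867, scored 12 and lay 5059 bp from the nearest open region. Across the list 34.5% of HEB regions met an open region, so lying outside one was usual, and 41.6% scored 12 or higher. Of windows of 200 kb, 26.6% held at least 1 HEB region. No TCF1 region was called in the window. The nearest TCF1 regions lay 125415 bp before it (score 17) and 326769 bp after it (score 9). Among the 217 grid windows of 200 kb with at least 29 DNaseI regions, 16.1% held no TCF1 region.

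Wide open regions carried a factor more often throughout the list, so the shares were also read against width. HEB was carried by 3 of 25 open regions at Cd4, or 12% (95% Wilson interval 4.17 to 30.0%), against 3.43% of all DNaseI regions. From the width classes of the 25 regions a share of 5.79% was expected, or 1.45 regions. TCF1 was carried by 3 of 25 there, or 12% (4.17 to 30.0%), against 6.1% of all DNaseI regions and 9.41% expected from width (2.35 regions). The TCF1 share at Zbtb7b was 2 of 12, or 16.7% (4.70 to 44.8%), with 5.09% expected from width (0.611 regions). At Runx3 the widths gave 2.07 expected regions with TCF1 and 1.15 with HEB, against 0 of each. All 6 intervals include the share expected from width. They treat the open regions of a window as independent, though many are close neighbours in 1 sample. A departure from the expected share was therefore not tested.

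**Figure D3:**
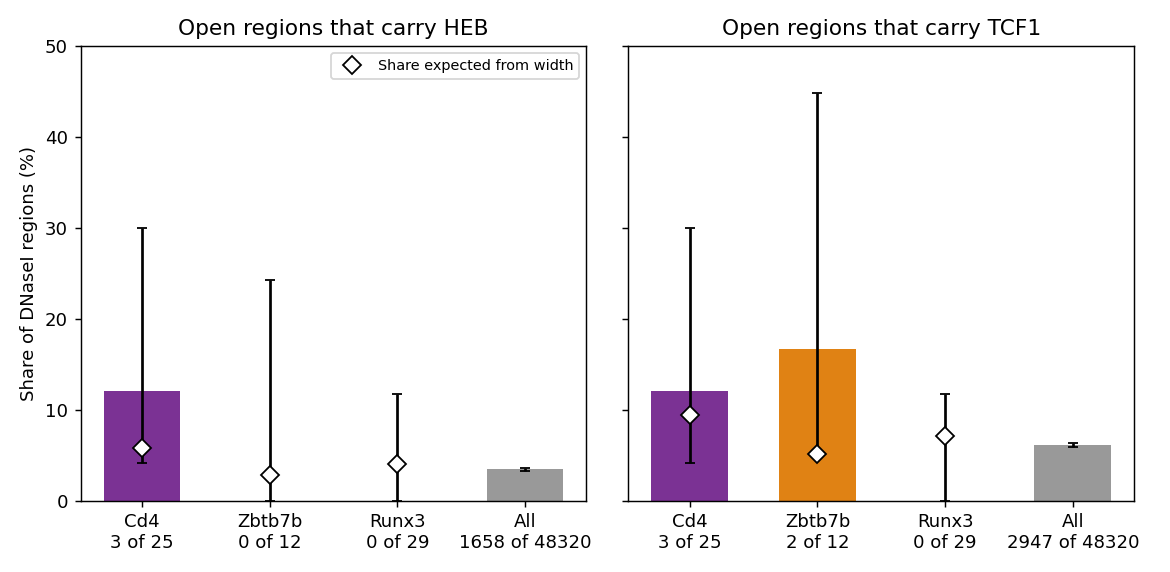
Share of DNaseI regions (vertical axis, %) that carried HEB (left) or TCF1 (right) in each window and in the whole list, with 95% Wilson intervals; diamonds mark the share expected from the width classes of the regions. Each interval of the 3 windows includes its diamond.

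The 3 windows together had 66 open regions. HEB was on 3 of them (4.55%, with 4.44% expected from width) and TCF1 on 5 (7.58%, with 7.63% expected), and 7 carried either factor, against 8.25% of the list and 10.2% expected. By width, 0 of the 45 members up to 510 bp carried a factor, against 3.37% of all DNaseI regions of these widths. The count was 1 of 5 from 511 to 627 bp (9.94% of the list), 2 of 4 from 628 to 853 bp (16.8%) and 4 of 12 among wider regions (32.1%). Of regions at least 1000 bp wide, a factor was found on 3 of 5 at Cd4, 1 of 1 at Zbtb7b and 0 of 4 at Runx3, against 36.2% over the whole list. Among regions scoring over 50, the number with a factor was 3 of 7 at Cd4, 2 of 2 at Zbtb7b and 0 of 3 at Runx3, against 33.3% over the list.

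**Figure D4:**
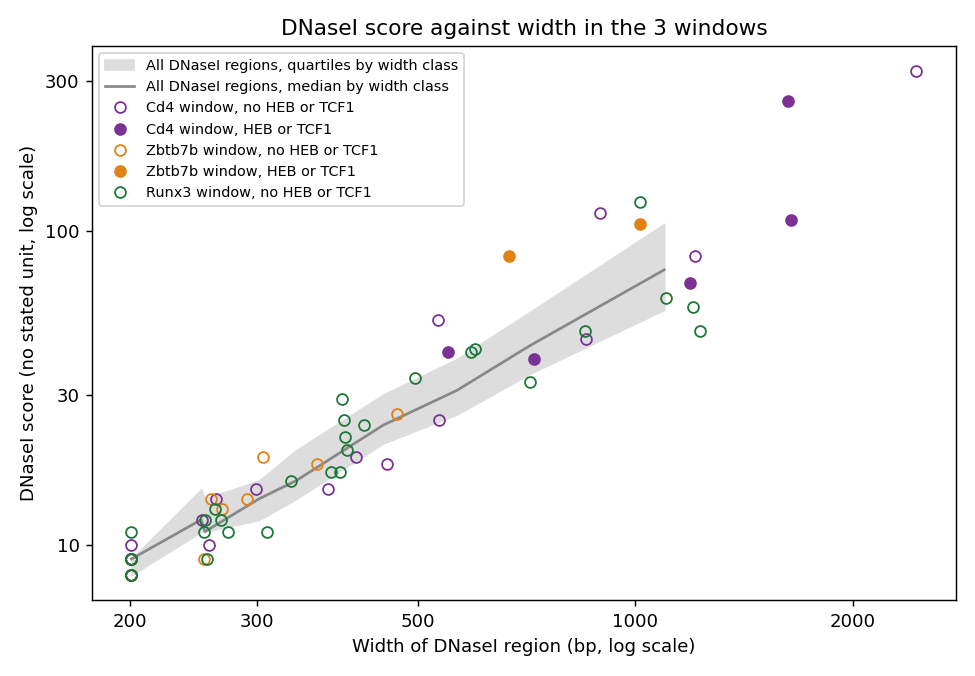
DNaseI score (vertical axis, no stated unit, log scale) against width (horizontal axis, bp, log scale) of the 66 open regions, filled where HEB or TCF1 was carried, over the median and quartiles of all DNaseI regions by width class. Filled points lie at widths of 551 bp or more, and no Runx3 point is filled.

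Inside their open regions the factors lay off the centre by 50 to 503 bp. The 3 HEB centres at Cd4 were 130, 220 and 160 bp from the centres of their open regions, and the genome-wide median was 128 bp (quartiles 57 and 244). The TCF1 centres were 153, 503 and 72 bp away at Cd4 and 50 and 238 bp at Zbtb7b, against a median of 119 bp (54.5 and 220 as quartiles). The TCF1 regions 503 and 238 bp from the centre lay beyond the upper quartile of their list, and no HEB region did. The open regions that held those TCF1 regions were 1641 and 1017 bp wide, while the quartiles pool open regions of every width. With so few regions, no departure from the list can be read from this.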

How the data were processed

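The authors deposited 1 region list per sample, with chromosome, start, end and a whole-number score that has no stated unit. HOMER 6.1 and mm9 are named, with no role, in the submitters' processing notes. The aligner, calling threshold and control are not given in the labels or files used here. Starts were converted to count from 1. The windows and the rules were chosen with earlier results of these data known. Regions named are every HEB and TCF1 region, every DNaseI region that carries one, and the 3 highest-scoring DNaseI regions of each window. The Cd4 regions scoring 52 and 83 were added after their values were seen. Groups of neighbouring regions were formed afterwards, with gaps of at most 5 kb.

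Overlap meant at least 1 bp. Width classes are deciles with equal widths kept together, so they differ in size. The expected share is the mean, over a window's regions, of the genome-wide share in each region's class. Grid windows start at base 1 of each chromosome. No test was possible with 1 sample per assay. Intervals are 95% Wilson or exact Poisson. Alternatives were other overlap rules, windows moved by 20 kb at each edge, scores above the list median and a grid shifted by 50%. A further promoter result is not reported here. Overlap and grid functions were checked on simulated lists. Python 3.11.15, numpy 2.4.6, pandas 2.3.3, scipy 1.17.1 and statsmodels 0.14.6 were used.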

Additional observations from a re-analysis of the deposited data

How the results depend on the processing

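Of 56 values under an alternative, 48 stayed within 1.5 times the main count or within the main interval. Requiring 50% of the shorter region, allowing a gap of 500 bp, widening the windows by 20 kb at each edge and shifting the grid moved none beyond these limits. Some of the 48 could not move. A count of 0 cannot fall in a narrower window or under a score filter, and its grid share stays at 100%. Narrowing the windows by 20 kb at each edge left 7 of 12 DNaseI regions and 0 of 2 TCF1 regions at Zbtb7b, so its TCF1 call rests on the window's upper 20 kb. With scores above the list median, DNaseI regions numbered 13 at Cd4, 5 at Zbtb7b and 16 at Runx3. TCF1 regions numbered 1 at Cd4 and 0 at Zbtb7b, the share of open regions with TCF1 was 2.94% in place of 7.58%, and that with HEB was 8.82% in place of 4.55%. The lower counts follow from the filter. No paired analysis was possible because each assay had 1 sample. Regions missing from a list cannot be told from regions below its unknown calling limit.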
